A study of Mus musculus with 6 samples.

Results

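The mouse counterparts of known androgen response genes were examined in the 3 lobes of the prostate, the ventral (VP), dorsolateral (DLP) and anterior prostate (AP), with and without overexpression of MYC. A list of 56 genes was taken by symbol from a table of 24908 genes. All 56 were found, 55 by their own symbol and ANKH through the RefSeq entry Ank, whose synonym is Ankh, so that its row is called ANK here. Of these, 52 averaged 1 FPKM or more across all 6 libraries and were compared, as were 12361 genes of the whole table by the same minimum. FPKM, or fragments per kilobase of a transcript relative to all mapped reads, is a level corrected for gene length and depth.

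The WT group is a wild-type FVB male, and the MYC group is its Hi-MYC littermate, heterozygous for human c-MYC driven by ARR2Pb, an androgen-responsive promoter derived from probasin that acts in the prostate epithelium. Both were 12 weeks old and ate the same purified diet after weaning. Each lobe gave 1 library per genotype, made from poly(A) RNA of the dissociated lobe, and the 3 libraries of a genotype come from 1 mouse. Genotype and mouse therefore cannot be told apart, no difference has a replicate check, and no p-value is given. The lobes of 1 mouse are likewise not replicates of each other.

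Androgens are the steroid hormones on which the prostate depends. In its luminal cells they drive genes of secretion, glycosylation, lipid metabolism and differentiation, mostly through androgen response elements in enhancers far from the genes. Feedback genes are among the targets, such as FKBP5, a co-chaperone of steroid receptors, and several targets, FKBP5 and SGK1 among them, also respond to the glucocorticoid receptor, which can bind the same element. MYC is a transcription factor that binds E-box sequences near the starts of genes of growth and proliferation.

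Promoter sequence of 4 members is shown, since their levels are described below: HPGD and NCOA4 were lower in MYC VP and DLP and higher in MYC AP, FKBP5 had the highest ratio in AP, and SGK1 was the 1 member whose promoter held a full element. RefSeq promoters were found for 40 of the 52 members. Each line gives the 250 bases before an annotated start, 5′ to 3′ on the strand of the gene, from RefSeq on GRCm38.p6, the mm10 assembly that the labels name for the deposited table. HPGD lies at chr8:56294302-56294551 on the plus strand, NCOA4 at chr14:32159637-32159886 on the plus strand, FKBP5 at chr17:28486150-28486399 on the minus strand and SGK1 at chr10:21993640-21993889 on the plus strand. NCOA4 and SGK1 have further annotated starts that are not shown. Capitals mark the half-site of the androgen response element, AGAACA or TGTTCT, and the E-box CACGTG.
HPGD: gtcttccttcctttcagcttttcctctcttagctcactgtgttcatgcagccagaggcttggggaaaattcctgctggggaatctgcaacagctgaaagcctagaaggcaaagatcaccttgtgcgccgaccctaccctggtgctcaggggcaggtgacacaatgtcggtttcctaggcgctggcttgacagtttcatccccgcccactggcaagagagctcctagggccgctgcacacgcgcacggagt
NCOA4: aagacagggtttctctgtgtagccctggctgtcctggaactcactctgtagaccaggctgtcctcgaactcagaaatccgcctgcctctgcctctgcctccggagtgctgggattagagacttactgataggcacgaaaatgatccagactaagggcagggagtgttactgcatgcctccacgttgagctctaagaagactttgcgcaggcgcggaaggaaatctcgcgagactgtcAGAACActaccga
FKBP5: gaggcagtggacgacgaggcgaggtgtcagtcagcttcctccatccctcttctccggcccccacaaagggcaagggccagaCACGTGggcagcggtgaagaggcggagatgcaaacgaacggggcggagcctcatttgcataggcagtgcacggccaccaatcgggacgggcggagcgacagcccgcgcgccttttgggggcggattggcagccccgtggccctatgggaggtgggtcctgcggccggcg
SGK1: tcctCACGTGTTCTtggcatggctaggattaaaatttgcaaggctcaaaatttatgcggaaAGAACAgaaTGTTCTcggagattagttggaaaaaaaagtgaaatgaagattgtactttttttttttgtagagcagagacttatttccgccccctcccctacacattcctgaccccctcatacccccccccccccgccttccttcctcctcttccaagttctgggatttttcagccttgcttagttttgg

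The HPGD window held neither motif. In the NCOA4 window a half-site began 13 bases before the start, and in the FKBP5 window an E-box began 169 bases before it. The SGK1 window held both half-sites with 3 bases between them, AGAACA and then TGTTCT, from 189 bases before the start, the spacing of a full androgen or glucocorticoid response element, and further upstream an E-box that overlaps a TGTTCT. This arrangement was found in the promoters of 3 of 27025 genes. Half-sites, searched as AGAACA and TGTTCT and so on both strands over windows from 250 bases before to 50 bases after each start, were in a promoter of 6 of 40 members, or 15.0%, against 21.3% of all genes. The E-box, which reads the same on both strands, was in a promoter of 9 of 40 members, or 22.5%, against 8.09% of all genes. The shares of all genes cover the 27025 genes whether expressed or not, whereas every member averages 1 FPKM or more. A gene with several annotated starts also has several windows. The shares of members and of all genes are therefore not like for like, and nothing is read from their difference. These matches describe the letters only, and distant enhancers lie outside the windows.

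The depth of the libraries, estimated from the steps of low FPKM values, was between 25.5 M reads in WT AP and 50.2 M in MYC AP. Counting 95% intervals (Clopper-Pearson) are given beside the main ratios; they cover counting error of reads, which carry no molecular identifiers, and not the difference between mice. A member value that passed the minimum rested on 61 reads or more, with a median of 1781.5. The ratio of MYC to WT is given as log2 of FPKM + 1, and a gene is called past a 2-fold threshold where this is at least 1 in size. The transcript row MYC, in which mouse and human sequence cannot be told apart, was at 226 FPKM in WT VP, 201 in WT DLP and 230.0 in WT AP, against 1696, 586 and 231 in the MYC lobes, so that it was higher in MYC VP and MYC DLP and the same in AP within 1%.

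Most androgen response genes were a little lower in MYC VP and MYC DLP, and in AP they stood where the other genes stood, except that the VP median turned to 0.0053 when scaled to the keratins Krt8 and Krt18, which moved the median of all genes to 0.23. The median log2 ratio of the 52 members was -0.25 in VP, where the median of all 12361 genes was 0.04, and 34 members were below 0. In DLP it was -0.19 against 0.03, with 37 members below 0. In AP it was 0.15 against 0.13, with 20 members below 0. Below the median of all genes were 37, 38 and 25 members in VP, DLP and AP. As shares, 65.4% of members were below 0 in VP and 71.2% in DLP, against 46.4% and 46.2% of all genes, and 38.5% in AP against 33.3%. In bulk samples, fewer cells of a type and less RNA per cell cannot be told apart.

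Members past 2-fold were 17.3% when lobes and directions are pooled, near the 18.7% of all genes. By direction the counts in VP and DLP were small. They lay somewhat above the share of all genes on the lower side and below it on the higher. In MYC VP, 5 of 52, or 9.62%, were lower (HPGD, TMPRSS2, IQGAP2, NDRG1 and NCOA4), and the background is 5.95% of all genes. None was higher, where the background is 6.88%. The split of 5 lower and 0 higher became 3 and 2 when scaled to Krt8 and Krt18, where the shares of all genes were 2.6% and 8.14%. It was 8 and 0 with a pseudocount of 0.1, where they were 10.3% and 10.1%, and with equal sums of FPKM without the top 20 genes, where they were 9.55% and 4.3%. In MYC DLP, 3, or 5.77%, were lower (HPGD, NCOA4 and SORD), where the background is 3.39%, and ANK was the 1 member (1.92%) that was higher, where the background is 6.46%. The lower count in DLP was 5 without the top 20 genes, where the background was 4.52%, and when scaled to Krt8 and Krt18, where it was 6.0%. With a pseudocount of 0.1 it stayed at 3, near a background of 5.11%. In MYC AP, PMEPA1 (1.92%) was lower, where the background is 0.599%, and FKBP5 (1.92%) was higher, where the background is 2.05%. This split of 1 and 1 became 0 and 3 when scaled to Krt8 and Krt18, where the shares of all genes were 0.437% and 3.74%. With medians of ratios it was 2 and 1, where they were 1.08% and 1.62%. At 1.5-fold, 14 members were lower and 4 higher in VP (backgrounds 14.9% and 16.7%), 8 lower and 1 higher in DLP (9.44% and 13.4%), and 3 lower and 5 higher in AP (3.13% and 7.53%). The lower counts at 1.5-fold were 26.9% of members in VP and 15.4% in DLP, above their backgrounds, and the higher counts were 7.69% and 1.92%, below them. In all, 9 of 52 members passed 2-fold in at least 1 lobe, and 29, or 55.8%, stayed under 1.5-fold in every lobe, against 56.5% of all genes. These libraries cannot test such differences from the background.

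**Figure D1:**
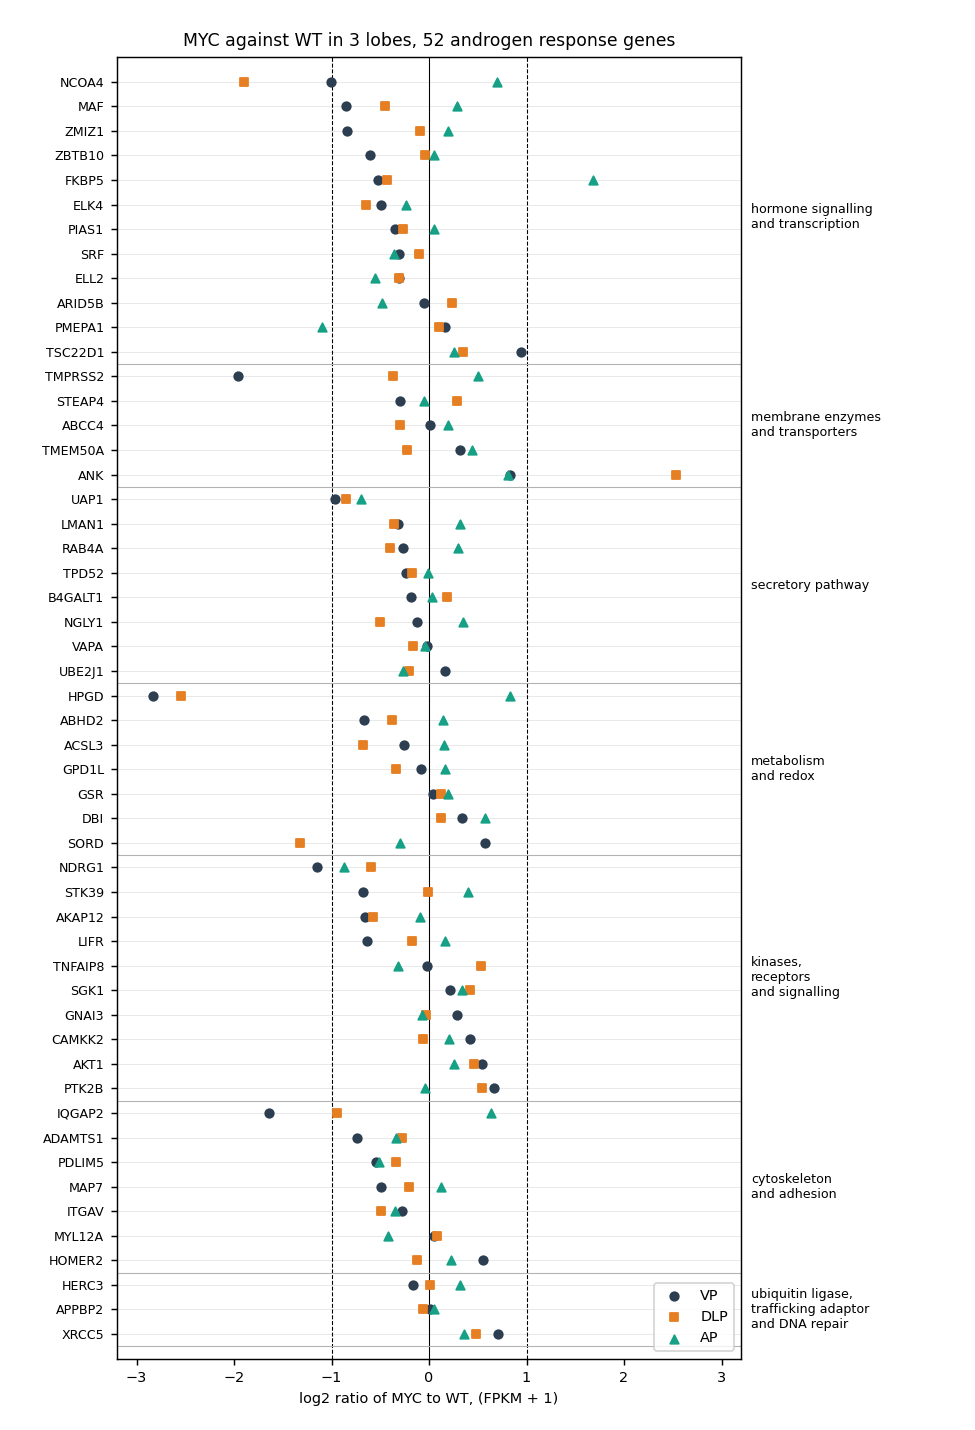
The log2 ratio of MYC to WT, from FPKM + 1, is plotted for each of the 52 members in VP (circles), DLP (squares) and AP (triangles), 1 library per genotype and lobe, with members grouped by role and dashed lines at 2-fold. HPGD has the lowest ratios, -2.83 in VP and -2.55 in DLP, and ANK the highest, 2.53 in DLP.

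By the sign of the ratio alone, without a threshold, 29 of 52 members were below 0 in both VP and DLP, or 55.8% against 32.0% of all genes, and 18 of these were above 0 in AP, 34.6% against 18.2%. The ratios of all genes lean above 0 in AP. With size factors from medians of ratios, which bring the median of all genes in AP near 0, the second count was 16, or 30.8% against 15.2%. Of the 50 members with a counting interval, 13 had the interval of the FPKM ratio below 1 in VP and DLP and above 1 in AP (ABHD2, ACSL3, FKBP5, HPGD, IQGAP2, LIFR, LMAN1, MAF, NCOA4, NGLY1, RAB4A, TMPRSS2 and ZMIZ1). The signs of GPD1L, MAP7, PIAS1, STK39 and ZBTB10 were the same, but counting error spanned 1 in at least 1 lobe or, for MAP7, no interval could be computed. Ratios were below 0 in all 3 lobes for 11 members, 21.2% against 13.9% of all genes, and 9 of them had the interval below 1 in each lobe (ADAMTS1, AKAP12, ELK4, ELL2, ITGAV, NDRG1, PDLIM5, SRF and UAP1), TPD52 and VAPA not. Ratios were above 0 in all 3 for 7, 13.5% against 29.9%, and 6 of them had the interval above 1 in each (AKT1, ANK, DBI, SGK1, TSC22D1 and XRCC5), GSR not. For the interval counts of 13, 9 and 6 no share of all genes was computed, so they show only which signs counting error does not span. With equal sums without the top 20 genes the count above 0 in all 3 lobes was 4, or 7.69% against 18.5%. Over the 4 scalings the count below 0 in all 3 lobes was 8 to 16. The 8, with Krt8 and Krt18, were 15.4% against 7.18% of all genes. The 16, with medians of ratios, were 30.8% against 23.2%. Across members the ratios of VP and DLP, which share no library but come from the same 2 mice, had a Pearson correlation of 0.66 (Spearman 0.64), and across all genes 0.52. HPGD, NCOA4, IQGAP2, UAP1 and NDRG1 were low in both, whereas TMPRSS2 was low in VP and SORD in DLP.

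**Figure D2:**
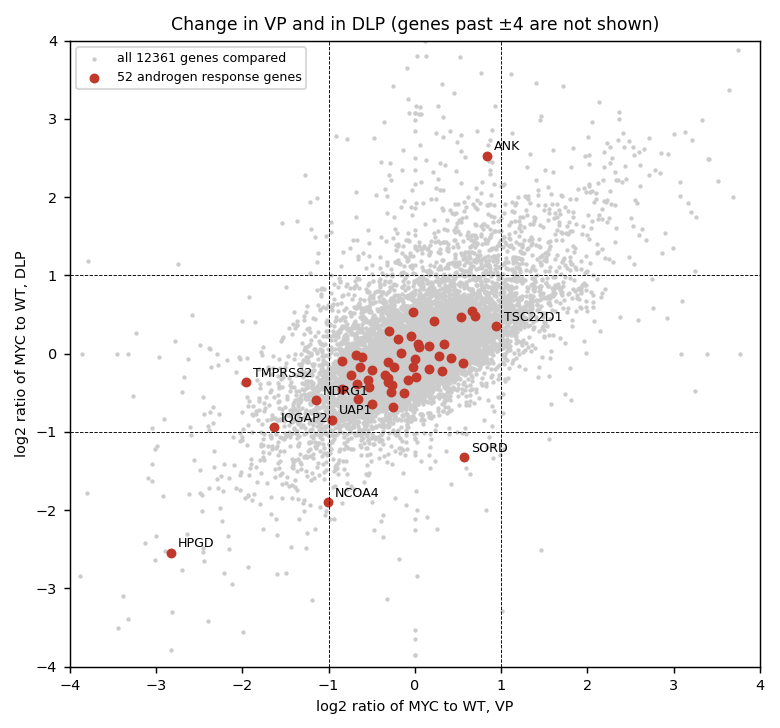
Each point is a gene, with the log2 ratio of MYC to WT in VP on the horizontal axis and in DLP on the vertical axis. Red points are the 52 members, grey points the 12361 genes compared except those past the limits of the axes, and dashed lines mark 2-fold. HPGD and NCOA4 lie past 2-fold lower on both axes, SORD on opposite sides of 0 and ANK at 0.84 and 2.53.

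Hormone co-factors and transcriptional regulators made the first role group, with 12 members. Of these, 10 were below 0 in VP (median -0.42), 9 in DLP (median -0.19) and 5 in AP (median 0.05). NCOA4, a nuclear receptor coactivator that also carries ferritin to autophagy, had 101 FPKM in WT VP, 209 in WT DLP and 42.7 in WT AP. In MYC it had 49.5, 55.3 and 70.1. Its WT level in DLP was the highest of the 6 and the spread among lobes was smaller in MYC. The FPKM ratio of MYC to WT was 0.491 in VP (counting interval 0.472 to 0.512), which spans 2-fold, and 0.264 in DLP (0.254 to 0.275). The log2 ratio in AP was 0.70, and that in VP was -0.74, within 2-fold, when scaled to Krt8 and Krt18.

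FKBP5, whose product binds steroid receptor complexes through HSP90, had 64.7 FPKM in WT VP, 43.8 in WT DLP and 11.1 in WT AP. In the MYC lobes it had 44.6, 32.2 and 38.04. WT AP was thus the low library, and the other 5 lay within 32.2 to 64.7. The FPKM ratio in AP was 3.42 (3.13 to 3.74), and the log2 ratios were -0.53 in VP and -0.43 in DLP. Beside this AP value, the 6 dissociation response markers summed to 8374 FPKM in WT AP and 10642 in MYC AP, with 6 of 6 higher. Smooth muscle markers summed to 233 and 373, with 6 of 6 higher, and the 4 seminal vesicle markers to 0 and 512. WT AP is the library with the fewest reads. The part of these in the result was not tested.

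PMEPA1, a membrane adaptor that dampens TGF-β signalling, had 14.4 FPKM in WT VP, 42.5 in WT DLP and 49.9 in WT AP, and 16.3, 45.8 and 22.8 in the MYC lobes. It was thus close between genotypes in VP and DLP, with log2 ratios of 0.17 and 0.10, and lower in MYC AP, with an FPKM ratio of 0.456 (0.428 to 0.487) and, scaled to Krt8 and Krt18, a log2 ratio of -0.93, within 2-fold. The AP markers given for FKBP5, which were higher in MYC, stand beside this value too. Luminal markers were lower there, at 0.809 of WT with 0 of 5 higher, and basal markers at 0.644 with 2 of 5 higher. The part of all these markers in the PMEPA1 value was not tested. The highest member of the group was SRF, the serum response factor, at 95.6 to 165 FPKM with log2 ratios between -0.36 and -0.11. TSC22D1, a leucine zipper regulator induced by TGF-β and by steroids, was higher in MYC VP, with 77.7 FPKM in WT and 151 in MYC. Its VP ratio of 0.95 was the highest of the 52 members in that lobe. MAF, ZMIZ1 and ZBTB10 were past 1.5-fold lower in VP (-0.85, -0.84 and -0.61), and ELK4, an ETS factor that partners SRF, in DLP (-0.65). Without the added 1 FPKM, MAF was past 2-fold in VP, with an FPKM ratio of 0.429 (0.373 to 0.492). PIAS1, ARID5B and the elongation factor ELL2 stayed under 1.5-fold in each lobe.

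**Figure D3:**
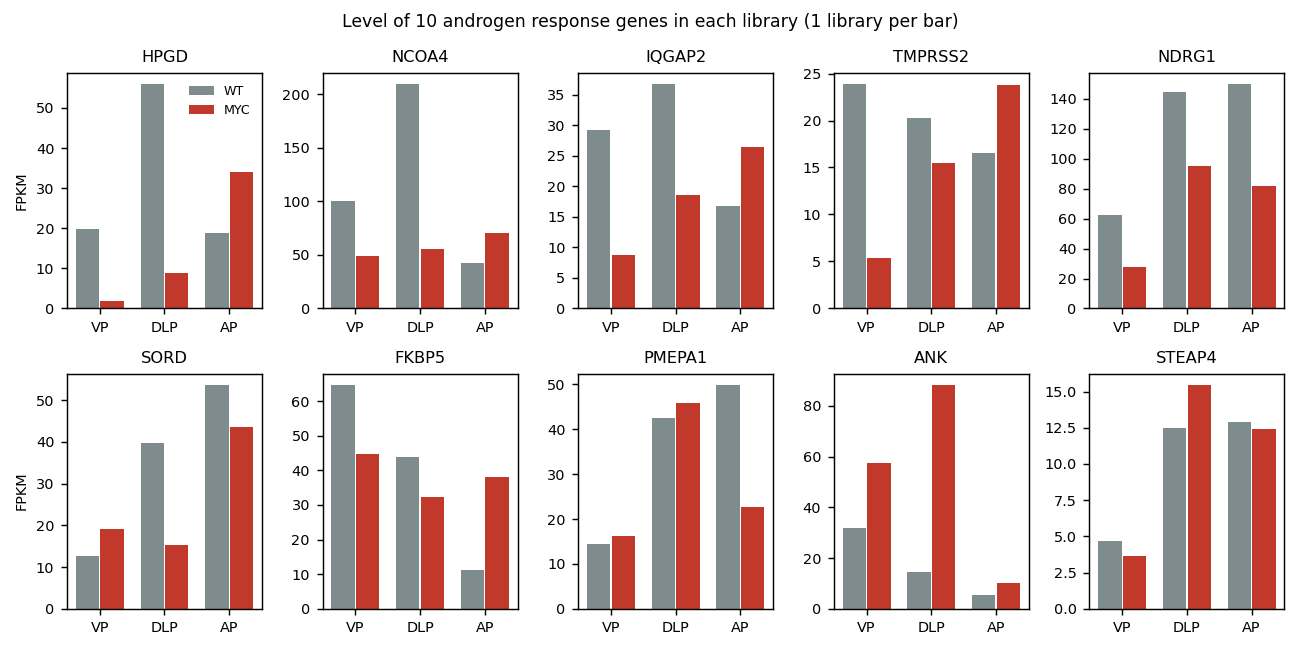
The level in FPKM, on axes from 0, is shown for 10 members in VP, DLP and AP of the WT (grey) and MYC mouse (red), 1 library per bar and no error bar for that reason. HPGD in VP is at 19.7 FPKM in WT and 1.91 in MYC, and FKBP5 is lower in WT AP than in the other 5 libraries.

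Membrane enzymes and transporters held 5 members past the minimum. TMPRSS2, the androgen-induced transmembrane serine protease, had 23.8 FPKM in WT VP, 20.3 in WT DLP and 16.5 in WT AP. The MYC lobes had 5.38, 15.5 and 23.8. MYC VP was the lowest of the 6 libraries, and MYC AP stood at the level of WT VP. The FPKM ratio in VP was 0.226 (0.207 to 0.245), and the log2 ratios of DLP and AP were -0.37 and 0.50. STEAP4, a metalloreductase of the plasma membrane and endosomes, had 4.69, 12.5 and 12.9 FPKM in WT VP, DLP and AP and 3.63, 15.5 and 12.4 in MYC. It was low in VP of both genotypes, and no lobe passed 1.5-fold between them.

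ANK, which exports pyrophosphate and citrate from cells, had 31.7 FPKM in WT VP, 14.5 in WT DLP and 5.27 in WT AP, and 57.4, 88.4 and 9.97 in MYC. All lobes were higher in MYC, DLP most of all, with an FPKM ratio of 6.11 (5.74 to 6.49). The order of the lobes changed too, VP being highest in WT and DLP in MYC. TMEM50A was the highest member of the group by its mean, at 35.1 to 62.9 FPKM, and it and ABCC4, a multidrug and prostaglandin transporter, had log2 ratios between -0.30 and 0.44. SLC26A2, a sulfate transporter, was under the minimum, with a mean of 0.973 FPKM.

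Among the 7 members of metabolism and redox, HPGD and SORD stood out. HPGD, the enzyme that begins the breakdown of prostaglandins, had 19.7 FPKM in WT VP, 55.9 in WT DLP and 18.8 in WT AP. In MYC VP, DLP and AP it had 1.91, 8.74 and 34.1. Both the VP and the DLP value of MYC were below every WT library, whereas MYC AP was above WT AP. The FPKM ratio was 0.0971 in VP (0.0803 to 0.118) and 0.156 in DLP (0.142 to 0.172), the lowest of the members in each, and the log2 ratio in AP was 0.83. SORD, sorbitol dehydrogenase, had 12.6, 39.7 and 53.7 FPKM in WT VP, DLP and AP and 19.2, 15.2 and 43.6 in MYC. Its DLP ratio was 0.384 (0.359 to 0.410), and in MYC the level in DLP was below that in VP, the opposite of WT. ABHD2, a lipid hydrolase and the highest of the group, had log2 ratios of -0.67, -0.38 and 0.15 in VP, DLP and AP, and ACSL3, a fatty acid CoA ligase, was past 1.5-fold lower in DLP (-0.68). GPD1L, GSR and DBI stayed under 1.5-fold in each lobe.

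The 8 members of the secretory pathway included none past 2-fold. In VP 7 of 8 were below 0 (median -0.21), as were 7 of 8 in DLP (median -0.28) and 4 in AP (median 0.01). UAP1, which makes UDP-N-acetylglucosamine for glycosylation, was lower in each lobe, with 29.9, 48.3 and 39.0 FPKM in WT VP, DLP and AP and 14.9, 26.4 and 23.6 in MYC. Its FPKM ratio in VP was 0.497 (0.457 to 0.540), and its log2 ratio there, -0.96, was the nearest to 2-fold from outside, and NCOA4, -1.01, the nearest from inside. VAPA, a tether of the endoplasmic reticulum and the highest member of the group, had log2 ratios between -0.17 and -0.02. LMAN1, a cargo receptor for glycoproteins, and NGLY1, which removes glycans, were lower in VP and DLP (-0.31 and -0.36, -0.13 and -0.50) and higher in AP (0.32 and 0.35). B4GALT1, UBE2J1, TPD52 and RAB4A lay between -0.40 and 0.30.

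Kinases, receptors and signalling held 10 members past the minimum, of which 5 were below 0 in VP, 6 in DLP and 5 in AP. NDRG1, an androgen- and hypoxia-induced gene of differentiation, had 62.2 FPKM in WT VP, 144 in WT DLP and 149.6 in WT AP, and 27.6, 95.1 and 81.6 in MYC. It was lower in each lobe, by an FPKM ratio of 0.443 (0.411 to 0.478) in VP (log2 ratio -0.87, within 2-fold, when scaled to Krt8 and Krt18), and VP was the low lobe in both genotypes. Its AP log2 ratio, -0.87, was the nearest to 2-fold from outside in that lobe, where PMEPA1, -1.10, was the nearest from inside. SGK1, the glucocorticoid-induced kinase whose promoter is printed above, was the highest of the group, with 101, 148 and 138 FPKM in WT VP, DLP and AP and 118, 198 and 175 in MYC, so that each ratio was above 0 and under 1.5-fold. AKT1, a kinase of the insulin and growth factor pathway, was likewise above 0 throughout, at 0.54, 0.46 and 0.25. In VP, STK39 (-0.68), AKAP12 (-0.66) and LIFR (-0.64) were past 1.5-fold lower and PTK2B (0.66) higher. Without the added 1 FPKM, the FPKM ratio of LIFR there was 0.428 (0.355 to 0.515), which spans 2-fold. GNAI3, CAMKK2 and TNFAIP8 stayed under 1.5-fold in each lobe. For CAMKK2 this rests on the added 1 FPKM, as its plain FPKM ratio in VP was 1.64 (1.29 to 2.13). CAMKK2, at a mean of 1.95 FPKM, was the member just inside the minimum, and CDC14B and INPP4B were below it at 0.806 and 0.918, as was MAK, under 0.1 FPKM in every library.

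Of the 7 cytoskeletal and adhesion members, IQGAP2 was past 2-fold. This scaffold protein had 29.3 FPKM in WT VP, 36.7 in WT DLP and 16.7 in WT AP, and 8.75, 18.6 and 26.5 in MYC. As with HPGD and NCOA4, MYC was lower in VP and DLP and higher in AP. The FPKM ratio in VP was 0.299 (0.280 to 0.318). In DLP its log2 ratio of -0.94 was the nearest to 2-fold from outside, and SORD, -1.33, the nearest from inside. The IQGAP2 gene spans F2rl2, a thrombin receptor gene, and 9 of the 52 members overlap another protein-coding gene in the annotation, whose reads the counting may share. MYL12A, a regulatory light chain of myosin, was the highest of all members, at 267 to 359 FPKM with log2 ratios of 0.05, 0.08 and -0.42. ADAMTS1 was past 1.5-fold lower in VP (-0.73), and PDLIM5, MAP7, ITGAV and HOMER2 stayed under 1.5-fold. For HOMER2 this rests on the added 1 FPKM, as its plain FPKM ratios were 1.585 in VP and 1.502 in AP. Last, APPBP2, a trafficking adaptor at 15.0 to 18.9 FPKM, moved least of its group, HERC3, a ubiquitin ligase, lay between -0.16 and 0.32, and XRCC5, the Ku80 subunit of DNA end joining, was higher in each lobe, at 0.70, 0.48 and 0.36.

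The pattern of WT lobes was then set beside these ratios. In WT, 15 members were highest in VP, 20 in DLP and 17 in AP. The range over the 3 WT lobes had a median of 0.79 on the log2 scale, against 0.52 over all genes, and 19 members, or 36.5%, spanned at least 2-fold, against 20.8%. Between WT VP and WT DLP 14 members differed by 2-fold, or 26.9%, where the background is 8.92%. Of the 14, 12 were higher in DLP (SORD, PMEPA1, ADAMTS1, HPGD, AKAP12, STEAP4, NDRG1, MAF, PTK2B, NCOA4, TNFAIP8 and ABHD2) and ANK and ZBTB10 in VP. The count was 8 with size factors from medians of ratios, where the background was 8.32%, and 43 when scaled to Krt8 and Krt18, where it was 80.6%. Between WT VP and WT AP 14 members, or 26.9%, differed, where the background is 18.2%, 6 higher in VP and 8 in AP. Scaled to Krt8 and Krt18 this was 37, with 0 higher in VP and 37 in AP, where the background was 69.1%. With equal sums it was 17, with 5 higher in VP and 12 in AP, where the background was 19.0%. Between WT DLP and WT AP 7 members, or 13.5%, differed, where the background is 5.16%, all higher in DLP (HOMER2, IQGAP2, RAB4A, ANK, HPGD, FKBP5 and NCOA4). That count was 4, or 7.69%, with size factors from medians of ratios, where the background was 4.7%.

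Marker levels also differed among the WT lobes. The 5 luminal markers summed to 3806 FPKM in WT VP, 1946 in WT DLP and 2206 in WT AP, and the 5 endothelial markers to 23.1, 109 and 142. Basal markers summed to 433, 993 and 1419, and fibroblast markers to 648, 1284 and 1201. WT VP thus had the most luminal and the least basal, fibroblast and endothelial RNA. Smooth muscle markers, at 358, 419 and 233 FPKM, were lowest in WT AP instead. ADAMTS1, AKAP12 and LIFR, which stromal and endothelial cells also express, were lowest in WT VP of the WT lobes. The part of these cell types in the lobe differences was not tested.

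The ratio in a lobe did not follow the WT difference between the other lobes closely. These pairs share no library, though they come from the same mice, and the values describe 52 genes with no p. The VP ratio had a Pearson correlation of -0.20 with the WT difference of DLP minus AP (Spearman -0.04), the DLP ratio 0.10 with WT VP minus AP (-0.07) and the AP ratio 0.28 with WT VP minus DLP (0.23). Over all genes the same Pearson values were -0.07, -0.03 and 0.18. HPGD, NCOA4 and IQGAP2 were high in WT DLP against WT AP and low in MYC VP, whereas ANK and HOMER2 were also high in WT DLP against WT AP and had VP ratios of 0.84 and 0.56.

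**Figure D4:**
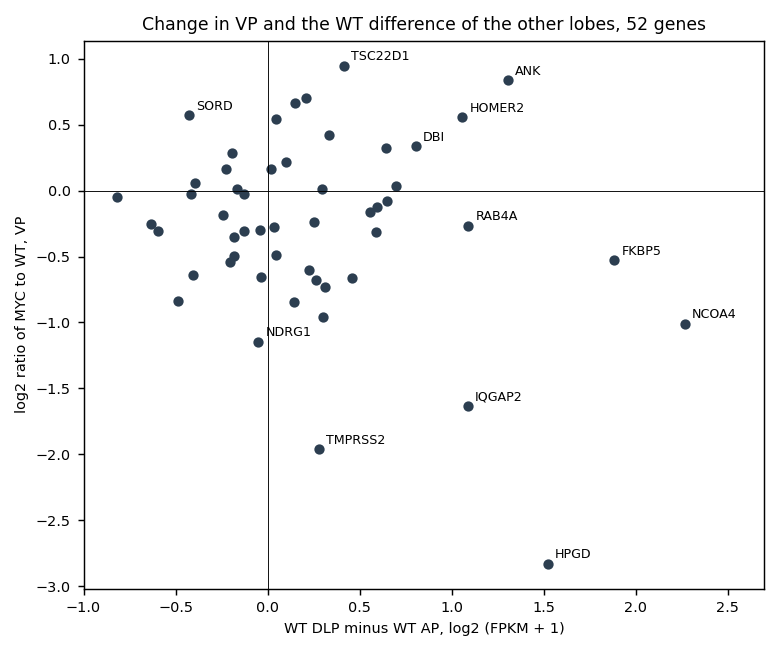
Each point is 1 of the 52 members, with the difference of WT DLP minus WT AP in log2 of FPKM + 1 on the horizontal axis and the log2 ratio of MYC to WT in VP on the vertical axis; no library enters both axes. HPGD, NCOA4 and IQGAP2 lie to the lower right and ANK and HOMER2 to the upper right, and the Pearson correlation over the points is -0.20.

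Levels in the MYC lobes can be set beside the WT levels, with which each ratio shares its WT library. Between MYC DLP and MYC AP 4 members, or 7.69%, differed by 2-fold, near the background of 8.03%: ANK was higher in DLP, and HPGD, ACSL3 and SORD in AP. NCOA4, for example, was at 209 and 42.7 FPKM in WT DLP and WT AP and at 55.3 and 70.1 in MYC. Between MYC VP and MYC DLP 15 members, or 28.8%, differed by 2-fold, where the background is 17.6%. Between MYC VP and MYC AP 16, or 30.8%, did, where the background is 25.1%. The range over lobes was narrower in MYC than in WT for 27 of 52 members, or 51.9%, against 39.7% of all genes. The widest in WT was FKBP5, at 2.44, and the widest in MYC was HPGD, at 3.59. The 15 members highest in WT VP had a median VP ratio of -0.31, the 20 highest in WT DLP a median DLP ratio of -0.25 and the 17 highest in WT AP a median AP ratio of -0.09. Each class was chosen with the WT library that its ratio uses, so that nothing is read from these medians.

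Markers of other cells moved with genotype in VP and DLP. Hematopoietic markers had a summed level of 11.2 FPKM in VP of the WT mouse and 120.0 in that of the MYC mouse, 10.7-fold higher, and to 18.6 and 159 in DLP, 8.57-fold higher, with 5 of 5 higher in both. Smooth muscle markers were at 0.615 and 0.585 of WT in VP and DLP, with 0 of 6 higher, and at 1.60-fold in AP, with 6 of 6 higher. Fibroblast markers were at 0.301, 0.544 and 1.14 of WT in VP, DLP and AP, with 1, 3 and 5 of 6 higher. Luminal markers were at 0.835, 1.12 and 0.809, basal markers at 0.691, 1.39 and 0.644, and endothelial markers at 1.09 to 1.11. The dissociation response markers were at 0.672 of WT in VP, with 0 of 6 higher, at 6847 FPKM in WT and 6855 in MYC DLP, and at 1.27-fold in AP. The 4 seminal vesicle markers, listed at 0 in WT VP and WT AP, summed to 512 FPKM in MYC AP, and in DLP to 0.0621 in WT and 7.88 in MYC, with 4 of 4 higher in both lobes. With Krt8 and Krt18 as the reference, luminal keratins that differ among the lobes, the members' median was 0.01 in VP, -0.41 in DLP and 0.34 in AP, against medians of all genes of 0.23, -0.17 and 0.29. The members' part of these differences that comes from cell composition was not tested.

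**Figure D5:**
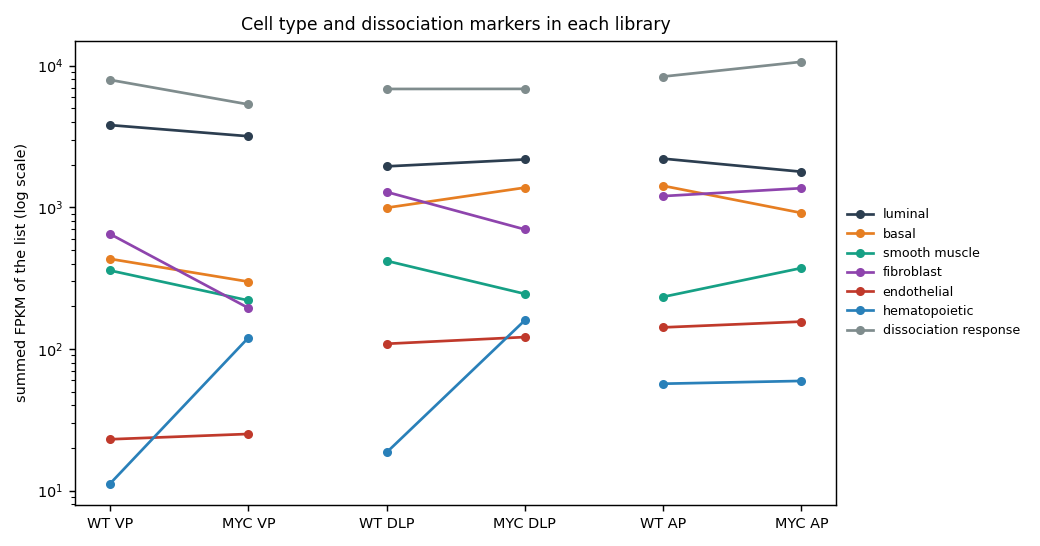
The summed FPKM of 7 marker lists is plotted on a log axis in each library, with a line from WT to MYC within each lobe, 1 library per point. Hematopoietic markers are 10.7-fold higher in MYC VP and 8.57-fold in MYC DLP, and smooth muscle markers are lower in both and higher in MYC AP.

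A further list of 42 genes of the androgen response, outside the members, gave 41 past the minimum. Their median log2 ratio was -0.31 in VP, -0.06 in DLP and 0.13 in AP, against 0.04, 0.03 and 0.13 for all genes. In VP 6 were past 2-fold lower and 4 higher, 14.6% and 9.76% of the list where the backgrounds are 5.95% and 6.88%. In DLP 2 were lower and 3 higher, 4.88% and 7.32% where the backgrounds are 3.39% and 6.46%. In AP 0 were lower and 2 higher, the latter 4.88% where the background is 2.05%. Among the lowest in VP was AZGP1, a secreted glycoprotein, with 82.8 FPKM in WT and 10.9 in MYC (log2 ratio -2.82), and among the highest was CENPN, a centromere protein, with 0.296 and 2.73 FPKM (1.52). AZGP1 was also past 2-fold lower in DLP, and CENPN past 2-fold higher there. CENPN was at 0.296, 0.217 and 0.376 FPKM in WT VP, DLP and AP. It passed the minimum only through its MYC libraries, so that its rise, counted in both lobes above, is not support for a change of the list.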

How the data were processed

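Bulk RNA-seq of 6 libraries was analysed, 1 per prostate lobe of 1 WT and 1 MYC mouse. The authors mapped stranded single-end reads with STAR and quantified genes with Cufflinks (mm10 per the labels; annotation not given in the sources used here), and deposited 1 table of FPKM. The methods call these values read counts and name DESeq2, but they are not whole numbers, so no count model was run. The members, lists and roles were chosen with earlier results of these data known.

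Ratios were log2((FPKM + 1) of MYC / (FPKM + 1) of WT) over the genes that average 1 FPKM or more. A 2-fold threshold was used, with its share over all genes as background. With 1 library per group, no test was run. Depth was estimated from FPKM steps of single-exon genes (between 52.7% and 62.9% of low values lay within 0.1 of a whole read), and counting intervals could be computed for 50 of 52 members, with GENCODE M1 lengths. Named were FKBP5, TMPRSS2, PMEPA1 and STEAP4, members past 2-fold in a lobe, the highest member of each of 7 roles, the members nearest each threshold, and the 2 lowest and 2 highest VP ratios of the further list, of which some genes are not reported here; other members were named to account for all. Alternatives were 4 scalings, a pseudocount of 0.1, 2 filters and a 1.5-fold threshold; leaving out ANK, and sign patterns by scaling and counting interval, were added after seeing the data. The computations were tested on simulated data. Software was matplotlib 3.10.9, scipy 1.17.1, pandas 2.3.3, numpy 2.4.6 and Python 3.11.15.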

Additional observations from a re-analysis of the deposited data

Results flagged for a closer look

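For 7 of 52 members, or 13.5%, the log2 ratio of MYC to WT had opposite signs in a pair of lobes that lay at least 1 apart, and passed 2-fold in 1 of the pair. The share of all 12361 genes is 8.09%. With 1 library per group the difference between lobes was not tested, and the pairs share their mice. Given as the ratio in the first lobe minus that in the second, HPGD differed by -3.66 between VP and AP and by -3.37 between DLP and AP. NCOA4 differed by -1.71 and -2.60 for the same pairs, and FKBP5 by -2.21 and -2.12. TMPRSS2 differed by -2.46 and IQGAP2 by -2.27 between VP and AP. PMEPA1 went the other way, by 1.26 between VP and AP and by 1.20 between DLP and AP. SORD differed by 1.90 between VP and DLP.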

How the results depend on the processing

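Of 81 counts of members recomputed under an alternative, 59 stayed within 1.5 times the reported count, and of 11 log2 ratios of named genes past 2-fold, 8 stayed past it under all 4 scalings and the pseudocount of 0.1 (the filters cannot move them). Shares of all genes at the same setting stand in parentheses. With medians-of-ratios scaling the VP median was -0.35, AP had 2 members lower (1.08%), and 8 members differed between WT VP and DLP (8.32%) and 4 between WT DLP and AP (4.7%). With equal sums the VP median was -0.48; without the top 20 genes it was -0.51, with 8 lower in VP (9.55%), 5 lower in DLP (4.52%) and a DLP median of -0.35. Scaled to Krt8 and Krt18, VP had 3 lower (2.6%), 2 higher (8.14%) and a median of 0.0053, DLP 5 lower (6.0%) and -0.41, AP 0 lower (0.437%), 3 higher (3.74%) and 0.34, and 43 and 37 members differed between WT VP and DLP and between WT VP and AP (80.6% and 69.1%); NCOA4 (-0.74) and NDRG1 (-0.87) in VP and PMEPA1 (-0.93) in AP were then within 2-fold. A pseudocount of 0.1 gave 8 lower in VP (10.3%). At 1.5-fold, VP had 14 lower (14.9%) and 4 higher (16.7%), DLP 8 lower (9.44%), AP 3 lower (3.13%) and 5 higher (7.53%), and 26, 26 and 16 members differed between the WT lobes VP and DLP, VP and AP, and DLP and AP (24.9%, 37.9% and 17.2%). Without ANK, 0 members were higher in DLP. Relative to the median of all genes, the members' median stayed between -0.33 and -0.20 in VP and between -0.25 and -0.19 in DLP under all of these scalings, filters and pseudocounts. Ratios below 0 in VP and DLP and above 0 in AP were found for 16 to 22 members over the 4 scalings, against 18 as deposited. As shares these were 30.8% to 42.3% and 34.6% of members, against 15.2% to 26.2% and 18.2% of all genes. No paired analysis was possible because each group has 1 library. WT AP had the fewest reads, so its low values are the least precise.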
